A study of Mus musculus with 73 samples.

Results

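The genes described are 10 members of the actin cytoskeleton, actin itself and proteins that bind it, out of 23994 gene rows in a table of single lung cells. They were chosen by name, on their role in the actin cytoskeleton and with their levels in these cells already known. They are Actb, Actg1, Tmsb4x, Tmsb10, Cfl1, Pfn1, Coro1a, Arpc1b, Arpc2 and Lsp1. Their high levels are therefore a description of these cells, with no test.

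All 73 cells came from 1 B6 mouse of 10 weeks with the genotype Csf1r-GFP, in which green fluorescent protein marks cells with an active Csf1r gene. The left lung had been removed 7 days earlier, and the cells were taken from the right lobes. The sort took macrophages positive for CD45, for CSF1R-GFP and for F4/80 (the labels list Ly6G with no sign), and each cell was captured on its own on a Fluidigm C1 chip. No unoperated lung is analysed here, all cells form 1 group, and cells of 1 mouse are not replicates, so no p-value was computed.

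Actin is present in cells as monomers and as filaments, and filaments push the cell membrane forward as a macrophage crawls or engulfs a particle. The thymosins, encoded by Tmsb4x and Tmsb10, hold monomers in reserve, profilin (Pfn1) hands them to growing filament ends, and cofilin (Cfl1) severs old filaments. The Arp2/3 complex, with Arpc1b and Arpc2 among its subunits, starts new filaments as branches on existing ones. Coronin-1A (Coro1a) binds filaments and the Arp2/3 complex in blood cells, and Lsp1 is a filament-binding protein of leukocytes.

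A pair of actins and a pair of thymosins are among the members, and their sequences are shown because the levels of such close relatives can be told apart only where their transcripts differ. The coding sequences of Tmsb4x and Tmsb10 in GENCODE M21 (genome build GRCm38, which is mm10) are both 135 bases long, with 95 identical bases (70.4%). Capitals mark the 40 bases that differ, and the longest identical run is 10 bases:
Tmsb4x: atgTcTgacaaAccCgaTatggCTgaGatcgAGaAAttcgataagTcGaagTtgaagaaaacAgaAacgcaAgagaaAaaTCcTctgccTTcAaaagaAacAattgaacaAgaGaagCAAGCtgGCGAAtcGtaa
Tmsb10: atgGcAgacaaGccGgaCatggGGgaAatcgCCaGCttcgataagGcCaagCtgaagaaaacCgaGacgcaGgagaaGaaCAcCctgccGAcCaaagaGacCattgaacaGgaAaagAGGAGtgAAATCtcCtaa
The coding sequences of Actb and Actg1 are closer to each other, with 1000 of 1128 bases identical (88.7%) and a longest identical run of 62 bases. Their first 60 bases are shown, with capitals at the 9 bases that differ:
Actb: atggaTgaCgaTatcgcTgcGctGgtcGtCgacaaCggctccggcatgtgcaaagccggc
Actg1: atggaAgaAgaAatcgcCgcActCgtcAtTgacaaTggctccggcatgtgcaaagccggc
Over whole transcripts, untranslated parts included, the share of 50-base stretches also found in another gene's transcripts was 37.4% for Actg1, 27% for Tmsb10 and 9.12% for Actb. The most frequent partner of Actg1 was Gm12715 and that of Tmsb10 was Gm9844, and neither has a row in the table. The share was 7.38% for Arpc1b, 7.25% for Cfl1 and 0.145% for Arpc2, and it was 0 for Tmsb4x, Pfn1, Coro1a and Lsp1. How the authors' tools divided reads between such copies is not given in the sources used here, so the levels of Actg1 and Tmsb10 are the least certain by this measure.

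Estimated mouse fragments per cell ran from 346932 to 3485674 with a median of 1408868, and 1044 to 3745 genes were detected per cell at 1 or more FPKM (fragments per kilobase of transcript, scaled to the library). The macrophage and sort genes Csf1r, Ptprc, Emr1, Cd68 and Lyz2 were detected in 65, 69, 41, 71 and 72 of the 73 cells. Marker genes that are not members divided the cells into 4 sets. With markers counted at 10 or more FPKM, 14 cells held at least 4 of 8 alveolar macrophage markers (Ear1, Ear2, Plet1, Atp6v0d2, Car4, Pparg, Fabp4, Siglec5) and are called alveolar marker cells. Of the remainder, 10 held at least 2 of the 3 C1q genes (C1q cells), and 12 held at least 2 of 3 MHC class II genes (class II cells). The last 37 are called other cells, and 32 of them held at least 3 of 6 classical monocyte markers. Of the alveolar marker cells 13 held none of these 6, while 9 of the 10 C1q cells also passed the class II threshold. At least 3 of the 6 monocyte markers were also held by 9 of the 12 class II cells and 2 of the 10 C1q cells. The class II cells thus overlap with the other cells in these markers. The class II set includes 2 cells, numbered 2 and 54, with at least 3 of 8 endothelial markers, and calls of members that end without them are given both ways. No cell reached 3 markers of the epithelial, mesenchymal, neutrophil, T, B, NK, mast or platelet lists.

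The 10 genes held a median of 6.28% of a cell's mouse FPKM, from 2.25% in cell 54 to 12.9% in cell 18. Most of this came from Actb and Tmsb4x, which together made up a median of 78.9% of the members' FPKM. Actb had the highest FPKM of all genes in 22 of the 73 cells and Tmsb4x in 12, beside 16 cells led by Lyz2, the macrophage lysozyme gene. By mean FPKM, which is per length and so comparable between genes, the order was Actb, Tmsb4x, Actg1, Tmsb10, Pfn1, Cfl1, Lsp1, Arpc2, Coro1a and Arpc1b. Among all gene rows, Actb and Tmsb4x had the highest and second highest means, and Arpc1b had place 658. By the median over cells, Tmsb4x stood above Actb and the rest of the order was the same.

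**Figure D1:**
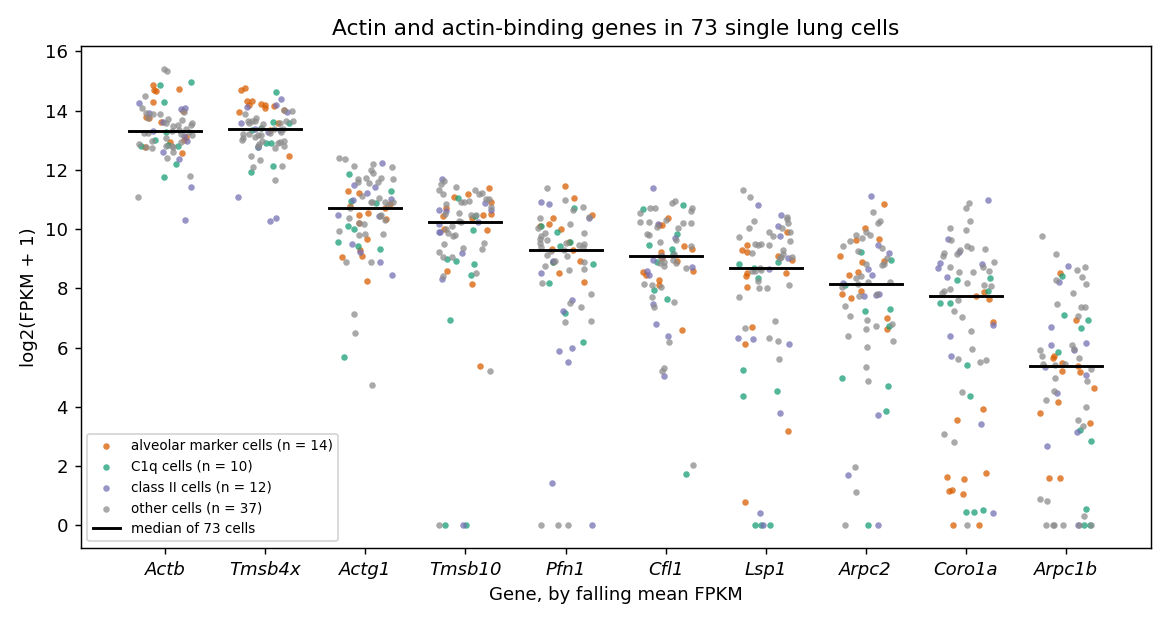
Level of each gene, log2(FPKM + 1), in each of 73 cells (points, coloured by set of cells) with the median as a bar, in falling order of mean FPKM. Actb and Tmsb4x lie above the other genes in nearly every cell, and Coro1a, Lsp1 and Arpc1b reach from 0 to over 500 FPKM.

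Only 1 step in this order was larger than its spread between cells. Tmsb4x exceeded Actg1 in 73 of 73 cells, by a median of 2.79 on the log2 scale against an SD of 1.42 for the within-cell difference. Actb exceeded Tmsb4x in 39 of 73 cells, with a median difference of 0.11 and an SD of 0.83, so the first 2 genes did not differ beyond their spread. The same held for every other neighbouring pair, from Actg1 and Tmsb10 (0.56, SD 2.71) to Coro1a and Arpc1b (1.59, SD 3.69).

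Of the 2 actins, Actb (beta-actin, chromosome 5, 142903115 to 142906754, minus strand) ranged from 1265 FPKM in cell 54 to 43562 in cell 76, with a median of 10170. Its mean was 12732 ± 8411 FPKM (SD, n = 73 cells), and every cell expressed it. Actg1 (gamma-actin, chromosome 11, 120345690 to 120348542, minus strand) ranged from 25.5 FPKM in cell 92 to 5401 in cell 63, with a median of 1659 and a mean of 1879 ± 1328 FPKM (SD, n = 73). It too was detected in 73 of 73 cells. Actb was the higher of the 2 in all of them, and the ratio is taken up below with the other paralogs.

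Among the proteins that bind actin monomers, Tmsb4x (thymosin beta-4, chromosome X, 167207093 to 167209315, minus strand) was the steadiest member. It ranged from 1228 FPKM in cell 2 to 27627 in cell 55, with a median of 10591 and a mean of 11486 ± 5707 (SD, n = 73). Its coefficient of variation (SD divided by mean) of 0.497 was the fourth lowest of the 74 genes detected in every cell, whose lowest was 0.473 (Rps29) and whose median was 0.676. Actb took place 34 in that order with 0.661, Actg1 place 43 with 0.707 and Cfl1 place 54 with 0.796. Beta-actin, often used as a reference gene, thus varied between these cells about as much as the median gene of that set.

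Tmsb10 (thymosin beta-10, chromosome 6, 72957347 to 72958748, minus strand) had a median of 1200 FPKM and a highest value of 3314, and it was at 0 in 4 cells. Pfn1 (profilin-1, chromosome 11, 70651850 to 70654644, minus strand) had a median of 629 FPKM and a highest value of 2818, and it too was at 0 in 4 cells. Each was detected in 69 of 73 cells (94.5%, exact Clopper-Pearson 95% interval 86.6 to 98.5, counting error only). Cfl1 (cofilin-1, chromosome 19, 5490455 to 5495201, plus strand) was detected in every cell, from 2.36 FPKM in cell 94 to 2689 in cell 42, with a median of 540. In the GENCODE annotation 16.5% of the Cfl1 exon bases overlap Snx32 on the opposite strand, and Snx32 was detected in 3 cells.

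Of the Arp2/3 subunits, Arpc2 (chromosome 1, 74236084 to 74268209, plus strand), a core subunit of the complex, was detected in 70 of 73 cells, with a median of 282 FPKM and a highest value of 2203. Arpc1b (chromosome 5, 145114215 to 145130705, plus strand), the form of the ARPC1 subunit that prevails in blood cells, was the lowest member. Its median was 40.4 FPKM and its highest value 874, and it was detected in 60 of 73 cells (82.2%, interval 71.5 to 90.2). A median of 94 estimated fragments stood behind an Arpc1b value, against 45538 for Actb. Pdap1 overlaps 18.2% of its exon bases on the opposite strand and had a median of 0.718 FPKM.

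The filament-binding genes Coro1a and Lsp1 ranged from absent to abundant. Coro1a (chromosome 7, 126699773 to 126707787, minus strand) ranged from 0 in 3 cells to 2041 FPKM in cell 86, with a median of 212, and was detected in 66 cells. Its 90th percentile was 701 times its 10th, where that ratio was 4.06 for Tmsb4x (it cannot be formed for Arpc1b, whose 10th percentile is 0). Lsp1 (chromosome 7, 142460809 to 142494867, plus strand) ranged from 0 in 4 cells to 2579 FPKM in cell 1, with a median of 415, and was detected in 67 cells; its percentile ratio was 81.3. The coefficient of variation was 1.56 for Arpc1b, the highest of the members, 1.29 for Coro1a, 1.05 for Arpc2 and 0.958 for Lsp1, all below the median of 1.58 over the 1285 genes detected in at least 37 cells.

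Across the 4 sets of cells, Coro1a was low in alveolar marker cells and Lsp1 in C1q cells, while Actb changed little. Sets were compared by the difference in mean log2(FPKM + 1), and a gene was called higher or lower where this difference was at least 1, a 2-fold step. All 10 members passed the requirement of detection in at least 8 cells, as did 6151 genes in all. Of all genes, 1285 were detected in at least 37 cells, while Arpc1b, the least detected member, was found in 60. Most genes tested thus had less room to fall than the members, and the downward shares and ranks below are not like for like. In no comparison did the members' values in a gated set lie wholly outside those of the other cells. The share of all genes tested that did so was not computed, so this only describes the members. Each comparison is of sets of cells within 1 mouse, and the 3 gated sets share the other cells as their reference.

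**Figure D2:**
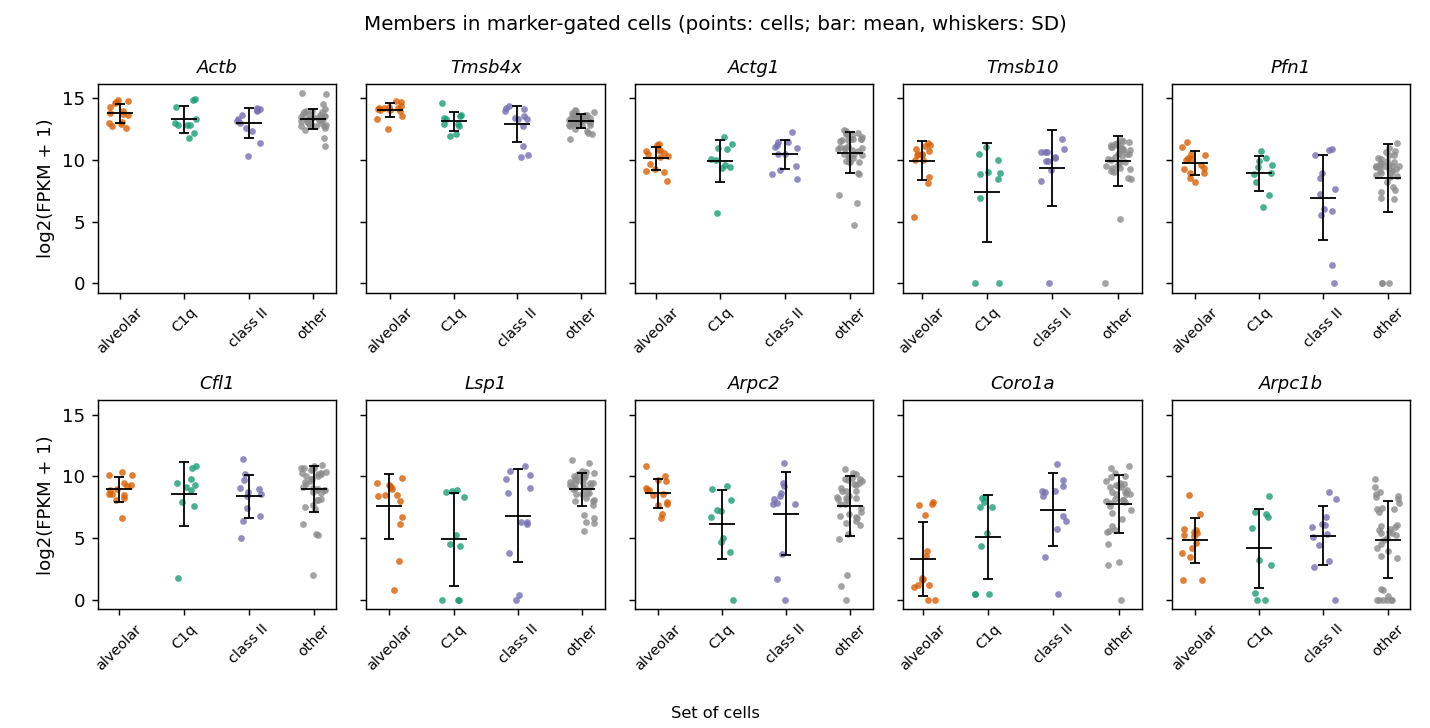
Each panel shows 1 gene in the 14 alveolar marker, 10 C1q, 12 class II and 37 other cells as log2(FPKM + 1), with a point per cell, a bar at the mean and whiskers of 1 SD over cells. Coro1a is lowest in alveolar marker cells (mean 3.29 against 7.79 in other cells) and Lsp1 in C1q cells (4.89 against 8.96).

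In alveolar marker cells 2 members were higher (Pfn1 and Arpc2) and 2 lower (Coro1a and Lsp1) than in other cells. The same steps were passed by 19.4% of all genes tested upward and by 8.28% downward, so the upward count is near what all genes gave. Coro1a had a lowest value of 0, a median of 2.28 and a highest value of 236 FPKM in the 14 alveolar marker cells, against 0, 373 and 1889 in the 37 other cells. Its difference in mean log2(FPKM + 1) was -4.50, and 0.374% of the 6151 genes had a lower one. The ranges overlapped, because 4 alveolar marker cells (numbers 87, 35, 19 and 17) held 115, 199, 212 and 236 FPKM and 1 other cell was at 0. The remaining 10 alveolar marker cells held at most 14.2 FPKM. The alveolar marker cell with the most mouse fragments, 3144950, was at 0. By the RNA measure described below, cells 87, 35, 19 and 17 all belonged to the set with more RNA. In that set, cells 6, 29, 55, 64, 75 and 85 held at most 14.2 FPKM. Alveolar marker cells 12, 21, 36 and 91, of the set with less RNA, held 0, 10.8, 2.43 and 1.28 FPKM. Whether this pattern reflects capture was not tested. All 12 alternative settings kept Coro1a past the step, with differences from -6.83 to -3.84. Dropping the gene filter or the cells with endothelial markers could not move this difference, as neither changed the cells or values compared.

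Lsp1 was lower in alveolar marker cells by less, with a median of 368 FPKM (0.724 to 956) against 585 (47.7 to 2579), a difference of -1.37. Tmsb4x had a median of 18373 FPKM (5708 to 27627) in alveolar marker cells and 9428 (3254 to 16667) in other cells. Its difference, 0.86, stayed under the step of 1, although 11 of the 14 alveolar marker values lay above the upper quartile of all cells, 15132 FPKM. Pfn1 had medians of 893 and 670 FPKM (difference in means of logs 1.21), and Arpc2 of 422 and 298 FPKM (1.03). For these last 2 the other cells included values of 0, while the lowest alveolar marker values were 294 FPKM for Pfn1 and 98.6 for Arpc2. With medians compared in place of means, neither passed the step (0.40 and 0.49), nor did Lsp1 (-0.67). Actb (0.43), Actg1 (-0.46), Tmsb10 (0.03), Cfl1 (-0.02) and Arpc1b (-0.08) were within the step.

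In C1q cells no member was higher and 4 were lower, namely Lsp1, Coro1a, Tmsb10 and Arpc2. Of all genes tested, 15.1% were higher and 8.34% lower in these cells. Lsp1 had a median of 29.8 FPKM (0 to 470) in the 10 C1q cells against 585 (47.7 to 2579) in the other cells, a difference of -4.07, and 0.26% of genes had a lower one. Of the C1q cells 4 lay between 324 and 470 FPKM and 6 at or under 37.1, of which 3 were at 0. No other cell was under 47.7 FPKM. Coro1a had a median of 110 FPKM (0.366 to 329) against 373, a difference of -2.71. Tmsb10 had a median of 466 FPKM (0 to 2109) against 1434 (0 to 3165), a difference of -2.55, with 2 of the 10 C1q cells and 1 of the 37 other cells undetected. Arpc2 had a median of 128 FPKM (0 to 605) against 298, a difference of -1.51. All 4 kept to the same side of the step in each of 9 alternative settings. Among these, dropping the gene filter or the cells with endothelial markers left the compared values unchanged and could not move them. The median of mouse fragments was 1641848 in C1q cells and 1364872 in the other cells.

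In class II cells no member was higher and 2 were lower, Lsp1 (-2.14) and Pfn1 (-1.60), where 9.59% of all genes tested were higher and 7.09% lower. Both counts rested on the 2 cells with endothelial markers: without cells 2 and 54 the differences were -0.82 and -0.35 and no member was called. Of the 6072 genes then tested, 792 were higher and 354 lower. Cell 54 had the lowest Actb value and cell 2 the lowest Tmsb4x value of all cells, and Pfn1 stood at 0 and 1.71 FPKM and Arpc2 at 0 and 2.25 FPKM in them. Cell 54 had neither Tmsb10 nor Lsp1. Coro1a, low in the other 2 gated sets, had a median of 373 FPKM (0.35 to 2041) in class II cells, close to that of the other cells.

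**Figure D3:**
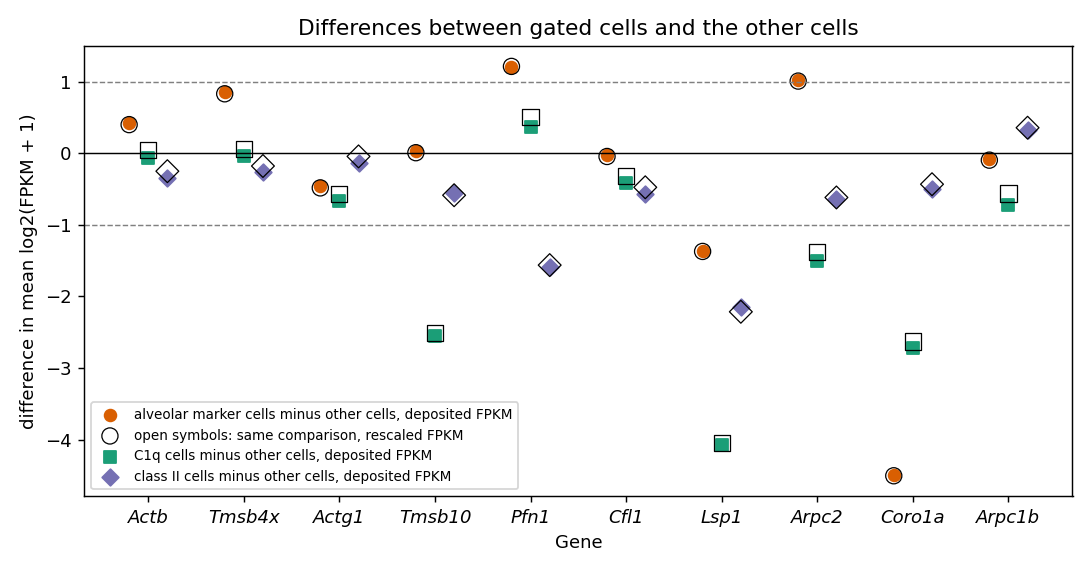
Difference in mean log2(FPKM + 1) between each gated set and the 37 other cells for each gene; filled symbols use the deposited FPKM and open symbols FPKM rescaled to 1 total per cell, and dashed lines mark differences of 1 and -1. Coro1a in alveolar marker cells (-4.50) and Lsp1 in C1q cells (-4.07) lie farthest from 0, and rescaling moves no symbol across a dashed line.

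The balance between close relatives was compared within each cell, as log2 of the ratio of (FPKM + 1). The added 1 sets the ratio where a gene is near 0, so folds are given only for relatives detected in most cells. Actb exceeded Actg1 by a median of 2.84 on this scale, a 7.16-fold ratio, with a range from 0.67 to 8.78. The median was 12.2-fold in alveolar marker cells, 6.88-fold in C1q cells, 5.32-fold in class II cells and 5.68-fold in other cells, and the sets' ranges overlapped. Tmsb4x exceeded Tmsb10 in 72 of 73 cells, by a median of 9.84-fold. Its median was 16.8-fold in C1q cells, where Tmsb10 was low, 12.1-fold in alveolar marker cells and 6.88-fold in other cells. The single cell with more Tmsb10 was cell 2.

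**Figure D4:**
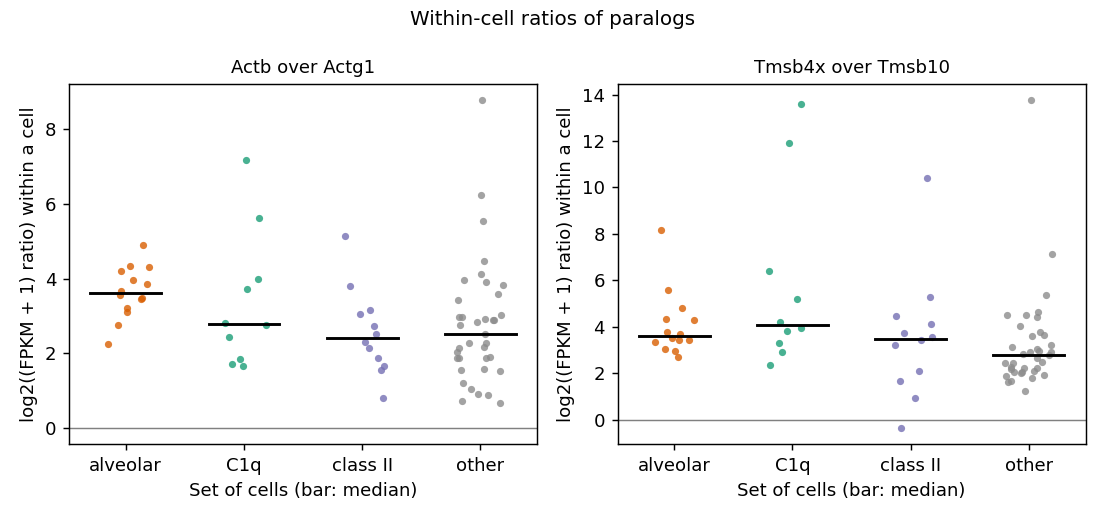
Within-cell log2 ratio of (FPKM + 1) for Actb over Actg1 and for Tmsb4x over Tmsb10 in each set of cells, with a point per cell and a bar at the median. Alveolar marker cells have the highest median for the actins (3.61 against 2.51 in other cells) and C1q cells for the thymosins (4.07 against 2.78).

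The relatives of the other members were mostly scarce. Cfl2, the muscle form of cofilin, was detected in 7 cells and Pfn2, a profilin best known from neurons, in 1. Dstn (destrin), which severs filaments as cofilin does, was detected in 58 cells, including all 14 alveolar marker cells. Its median was 245 FPKM there and 13.4 FPKM in the other cells, a difference of 3.47 in mean log2(FPKM + 1). In C1q cells it was detected in 9 of 10, with a median of 267 FPKM and a difference of 2.35. The median ratio of Cfl1 to Dstn was 2.23-fold in alveolar marker cells, 4.46-fold in C1q cells and 38.6-fold in other cells. Of the coronins, Coro1b was detected in 55 cells and Coro1c in 28. Coro1c had a median of 0.133 FPKM in other cells and 2.42 in alveolar marker cells, and Coro1a was the higher of the 2 in 36 of 37 and 7 of 14 of them. Arpc1a, the second form of the ARPC1 subunit, was detected in 26 cells, and Arpc1b was above it in 57.

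The members were also set against the amount of RNA in a cell, measured as mouse fragments divided by spike-in fragments, a ratio that ran from 0.41 to 6.05. It is a rough measure, since it rested on the 1 spike-in row that held values. Between the 37 cells with the higher and the 36 with the lower ratio, 6 members were higher in the first (Pfn1 1.52, Arpc1b 1.20, Cfl1 1.18, Actg1 1.09, Lsp1 1.04 and Tmsb10 1.02) and none lower. Of all genes tested, 20.7% were higher and 0.293% lower. Without cells 2 and 54, both in the second set, 4 members were higher, as Tmsb10 (0.81) and Lsp1 (0.62) no longer passed the step. Of the 6072 genes then tested, 1231 were higher and 21 lower. Pfn1 was at a median of 670 FPKM in the first and 489 FPKM in the second set, and its 4 undetected cells all belonged to the second. Tmsb10 showed the same pattern, with medians of 1238 and 1172 FPKM and its 4 undetected cells in the second set. When medians were compared no member passed the step, with Actg1 at 0.74 and Arpc1b at 0.70. After FPKM was rescaled to 1 total per cell 1 member passed it, and after scaling to fragments 3 did. The share of all genes past the step with medians or either scaling is not given here, so these counts describe the members only. Coro1a differed by 0.20 and Actb by 0.54. The 2 sets also differed in depth, with medians of 1935872 mouse fragments in the first and 848214 in the second. Medians of genes detected were 2701 and 1996.5. Whether cells with more RNA transcribe these genes more, or transcripts are caught more often in them, was not tested.

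Over the 73 cells the members rose and fell together only loosely. The median Spearman rho of the 45 pairs was 0.19, with 39 pairs above 0, beside 0.057 over all pairs of the 1285 genes detected in at least 37 cells. All cells share 1 chip and the authors' scaling, and members followed the summed mouse FPKM of a cell with rho of up to 0.62 (Pfn1). With every cell rescaled to 1 total the median fell to 0.076, where all pairs gave 0.029, and within the 37 other cells it was then -0.01. Both actins illustrate this, since their rho of 0.27 was 0.01 after rescaling. Actg1 and Lsp1 gave the highest rho, 0.49, and kept 0.45 after rescaling, although it was 0.22 within the other cells. Tmsb4x and Coro1a gave -0.11 and, rescaled, -0.21, but 0.12 and 0.05 within the other cells.

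**Figure D5:**
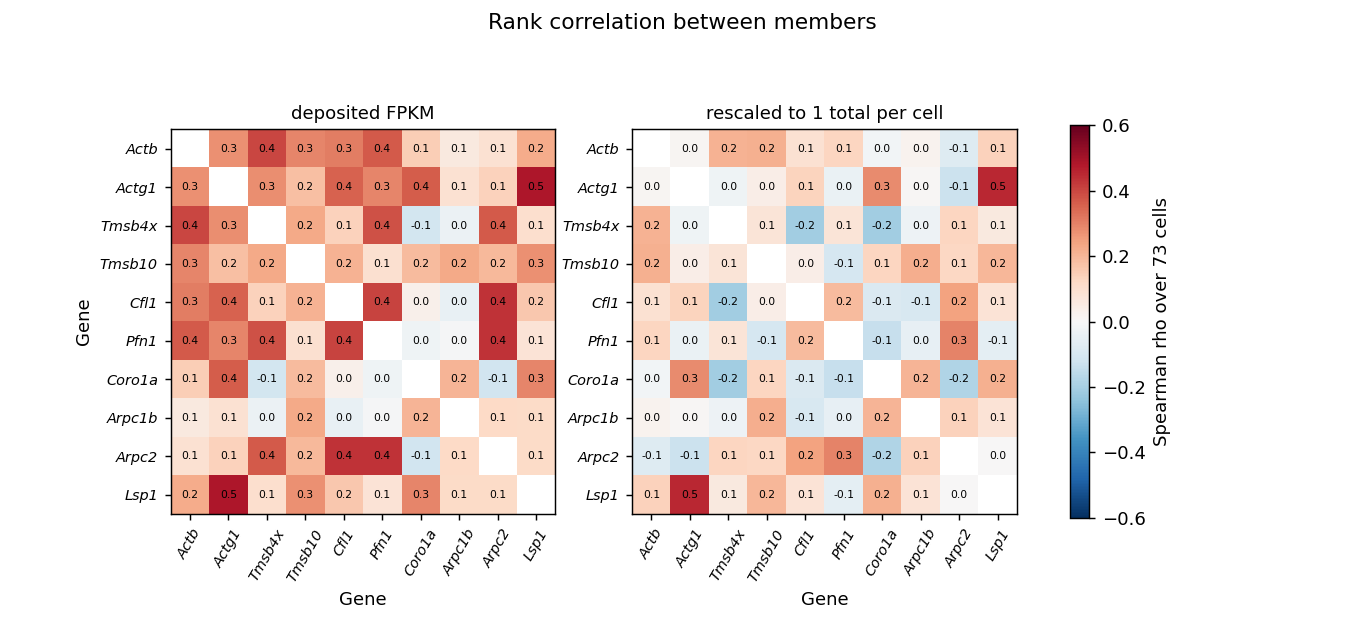
Spearman rho over 73 cells for each pair of members, left on the deposited FPKM and right on FPKM rescaled to 1 total per cell, with red for positive and blue for negative values. The pair Actg1 and Lsp1 keeps its rho (0.49 and 0.45), while most others move toward 0, and the median goes from 0.19 to 0.076.

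The genes whose pattern was most like each member were taken as the 3 with the highest rho on rescaled FPKM over the 73 cells. They were picked as the highest among the genes detected in at least 37 cells. How high a rho such picking gives for unrelated genes was not computed, so these values are a description. For Actb they were Atp6v0e (0.46), Myh9 (0.45), the heavy chain of non-muscle myosin, and Mxd3 (0.44). For Actg1 they were the enolase rows Eno1b (0.60) and Eno1 (0.55), followed by Plaur (0.45), the urokinase receptor. Cfl1 went with 2 genes of the actin capping protein, Capza1 (0.47) and Capza2 (0.39), and with the tubulin gene Tubb5 (0.40). Pfn1 went with Ftl1 (0.46), Aprt (0.42) and the myosin light chain Myl12a (0.41). Tmsb4x was most like Lmo4 (0.53), Ier5 (0.47) and Fam105a (0.47). Tmsb10 was most like Arhgap26 (0.46), Cox4i1 (0.45) and the monocyte marker Ly6c2 (0.43). Coro1a was most like Fyb (0.50), an adaptor protein of blood cells, Hp (0.49) and Sik1 (0.48). Arpc1b went with the integrin gene Itgb2 (0.44), Atp6ap1 (0.39) and Tlr2 (0.37). Arpc2 went with Sec61b (0.43), S100a10 (0.40) and Snx1 (0.39). Lsp1 went with Sub1 (0.47), the selectin ligand Selplg (0.45) and Emilin2 (0.44).

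Another 100 genes of actin regulation give the setting. Of these, 46 were detected in at least 37 cells, as were 1285 of all 23994 genes, and 84 could be compared between sets. In alveolar marker cells 15 of the 84 were higher and 11 lower, with a median difference of -0.03 (0.17 over all genes tested). Of all genes tested, 19.4% were higher and 8.28% lower in these cells. In C1q cells 16 were higher and 13 lower (median 0.01, all genes 0.08), and in class II cells 9 and 14 (-0.21, all genes 0.01). Over all genes tested the shares were 15.1% and 8.34% in C1q cells and 9.59% and 7.09% in class II cells. Without cells 2 and 54 the class II counts were 12 and 9 (-0.09, all genes 0.07), beside 792 and 354 of the 6072 genes then tested. Between cells with more and less RNA 34 were higher and none lower, with a median of 0.75 against 0.41 over all genes tested. Without cells 2 and 54 it was 30 and none. Of all genes tested, 20.7% were higher and 0.293% lower, and without these cells 1231 and 21 of 6072 genes were.

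Within the Arp2/3 complex, the actin-related subunit genes Actr2 and Actr3 were detected in 73 and 66 cells. Actr2 was lower in alveolar marker cells (-1.31), opposite to Arpc2 (1.03), and the other 7 of the 9 subunits stayed within the step. Of the bundling proteins, Marcks was lower in alveolar marker cells (-4.19) and higher in C1q cells (2.26), where Aif1 was higher by 4.95. Marcks and Aif1 were also higher in class II cells (1.67 and 1.93, and 2.06 and 2.72 without cells 2 and 54). Lcp1 (L-plastin), a leukocyte bundling protein, was lower in C1q (-1.46) and class II cells (-1.95, and -1.41 without cells 2 and 54). Actn1 (4.27), Tagln2 (1.97) and Actn4 (1.72) were higher in alveolar marker cells, and Cnn2 (-2.66) was lower. Gmfg, which takes branches apart, was lower in alveolar marker cells (-2.72). The myosin light chains Myl6 (1.42) and Myl12a (2.28) were higher there, while Myl12b (-0.33) was within the step. Myl6 was also higher in C1q cells (1.22), and Myl12a was lower in class II cells (-2.23, and -2.34 without cells 2 and 54).

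Other actin genes were scarce. Actl6a, the most abundant of those listed, was detected in 10 cells with a mean of 11.6 FPKM. Of the actins of muscle, Acta2 was detected in 5 cells, and Acta1, Actc1 and Actg2 in none; as a floor for a count of 0, 3 of 73 cells would make 4.11%. Srf, the transcription factor known for driving actin genes, was detected in 9 cells, and its cofactors Mkl1 and Mkl2 in 12 and 14.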

How the data were processed

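Polyadenylated RNA of single cells was amplified with SMARTer chemistry and made into Nextera XT libraries, per the labels' protocols. Per the submitters' processing notes, reads were processed against build mm10, and the tools named are Cuffnorm, Cufflinks 2.2.1, TopHat2 2.1.0 and CASAVA 1.8. Annotation and cell filters are not given in the sources used here. FPKM values were used as the authors deposited them. The deposited count table is a signal, counts that the authors' tools scaled per cell. Of 100012 low values, 99.6% lay within 0.1 of a whole multiple of their cell's step, so fragments were estimated by dividing by that step, and no count model was fitted. Of 24094 rows, 100 are spike-ins, of which 1 held values. Every column had a sample, leaving 0 unused.

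Detection meant at least 1 FPKM. Cells were gated by markers at 10 or more FPKM, in the order alveolar, C1q, class II. Comparisons used log2(FPKM + 1), a scale that understates changes of low genes, and genes detected in at least 8 cells. Rescaling set each cell's mouse FPKM to 1 total. No doublet caller was run on 73 cells from single capture sites. Correlations carry no p-value, since all points share a mouse. The members, the marker lists and the actin lists were chosen with earlier results of these data known. Genes of those lists named outside the members are the most abundant or past the step in them, paralogs of members, or the 3 most alike. Actr3 is an exception, named beside Actr2 as an actin-related subunit gene. Diaph1, Diaph2 and Wash1 of the lists were matched to the rows Diap1, Diap2 and Wash. There were 14 alternative settings listed with the tests and 4 added after seeing the data: scaling to fragments, an alveolar threshold of 5 markers, leaving out 1 cell that passed both the alveolar and class II gates, and keeping only other cells with 3 classical monocyte markers. The other actin genes without cells 2 and 54 were also added then. Scripts ran in Python 3.11.15 with pandas 2.3.3 and scipy 1.17.1 and were tested on simulated data.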

Additional observations from a re-analysis of the deposited data

How the results depend on the processing

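Of 623 recomputed values 607 kept to the main result within the margin set for each kind and none changed sign past the step. Some of the 607 could not move. Without the filter on low genes all 48 values stayed, because every member passed that filter. Leaving out the 2 cells with endothelial markers, both class II cells, could not alter the alveolar or C1q differences. The margin was wide, as the Arpc2 difference between cells with more and less RNA counted as kept at 0.21 (medians) against 0.91. The count of 607 thus overstates how many values were tested. The number of members higher in cells with more RNA, 6, became 1 with FPKM rescaled to 1 total per cell, 3 with scaling to fragments (added after seeing the data) and 0 with medians; it was 4 without the 2 cells with endothelial markers. The 2 members lower in class II cells became 0 without those cells, and the 14 other actin genes lower there became 9 (added after seeing the data). The 2 members higher in alveolar marker cells became 0 with gates at 1 FPKM or with medians, and 1 against other cells with at least 3 classical monocyte markers (added after seeing the data), and the 2 lower became 1 with medians. The share of all genes past the step is given only for the main setting and without the cells with endothelial markers. The counts of members under the other settings therefore describe the members only. The cause was not tested beyond what each setting leaves out. No paired analysis was possible because all cells belong to 1 group. Arpc1b rested on a median of 94 estimated fragments per cell, and with every cell thinned to the shallowest it was detected in 61 cells against 60.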
